A study of Mus musculus with 2 samples.

Results

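ATP-binding cassette (ABC) transporter genes were examined in B-ALL cells (acute lymphoblastic leukaemia of the B lineage) of the mouse, sorted by their NADH/NAD+ balance. The genes were all those whose current mouse symbol names subfamilies A to G of the family, of which 49 of the 20618 genes with a named probe were on the array, with 67 probes. Of these, 8 are known as exporters of cytotoxic drugs (Abcb1a, Abcb1b, Abcc1 to Abcc5 and Abcg2), and the other 41 were set beside them. The SoNar-high population is B-ALL cells from bone marrow with a high signal ratio of SoNar, a fluorescent protein sensor of NADH and NAD+, and the SoNar-low population is cells of the same leukaemia label with a low ratio; both are labelled as 8 weeks of age and bone marrow. Each population was hybridised to 1 one-colour array, so the populations could not be tested against each other, and precision is limited by the number of arrays. The titles call the samples N-myc-high and N-myc-low, while the groups here follow the sensor label; strain, genotype, promoter of any transgene and number of animals are not given in the sources used here.

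ABC proteins bind and hydrolyse ATP through nucleotide-binding domains, and most use it to move a substrate across a membrane. Subfamilies A and G are known for lipid and sterol export, B and C for drug, peptide and conjugate export, D for import into peroxisomes, and members of E and F lack membrane domains and act on ribosomes. In leukaemia, P-glycoprotein (encoded in the mouse by Abcb1a and Abcb1b), the multidrug resistance proteins (Abcc genes) and the breast cancer resistance protein (Abcg2) are known for pumping chemotherapy drugs out of cells.

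On the SoNar-high array 44.8% of spots were well above background by the scanner software's call, and on the SoNar-low array 72.9%; a gene with such a probe is called detected below. The lowest signal of a probe well above background was 40.8 intensity units on the SoNar-high array and 17.7 units on the SoNar-low array. Differences are log2 values, SoNar-high minus SoNar-low, after each array was divided by the 75th percentile of its probes, and a gene's value is the mean of those of its probes that both arrays detected; such a gene is called measured. Signals are printed before that scaling, with 75th percentiles of 408.9 units on the SoNar-high array and 470.2 units on the SoNar-low array, so a gene with a slightly lower signal on the SoNar-high array can have a difference above 0. The median of the 10521 genes measured in this way lay at 0.22, so differences are also given relative to that median gene. Scaling to the array median put the median gene at 0.79, and scaling over the probes that both arrays detected put it at -0.07. The error given after ± is the scanner software's own error estimate, with a median of 0.21 for a difference by 1 probe. Replicate spots gave a median SD of 0.15 for the difference by 1 spot, and probes of the same gene differed with a median SD of 0.32, and none of these errors covers the spread between animals or sorts.

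Of the 13 B-lineage markers, 9 were measured, with a median difference of 0.31 and, over the list, a summed signal of 41387 units on the SoNar-high array and 37405 units on the SoNar-low array. Of the markers of early B-cell stages, Dntt and Vpreb1 were measured, Vpreb2 was detected by SoNar-low alone, and Rag1, Rag2 and Igll1 were detected on neither array. Granulocyte markers were also present: all 8 neutrophil genes were measured, with a summed signal of 17302 units on the SoNar-high array and 23396 units on the SoNar-low array. The array of bulk RNA cannot tell fewer cells of a type from less RNA per cell.

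Among the ABC genes, 23 of 49 (46.9%) were detected on both arrays, against 51.0% of all genes with a probe. A further 17 (34.7%) were detected by SoNar-low alone, against 26.4% of all genes, and 9 (18.4%) on neither array, against 22.5%. None of the 49 was seen on the SoNar-high array only, and neither were more than 11 of all 20618 genes. Of the 23 measured genes, 0 passed 2-fold upwards in SoNar-high cells, against 2.4% of all measured genes, and 0 passed it downwards, against 4.39%. The ABC differences ran from -0.47 to 0.97 with a median of 0.18, and 15 of 23 lay above 0, against 66.9% of all measured genes, while after scaling to the array median all 23 did. Relative to the median gene 11 lay above and 12 below.

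Subfamilies differed in how many members were seen. All 4 genes of subfamilies E and F were measured on both arrays, and so were 6 of 10 of subfamily B, 4 of 10 of C, 2 of 4 of D, 5 of 15 of A and 2 of 6 of G.

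**Figure D1:**
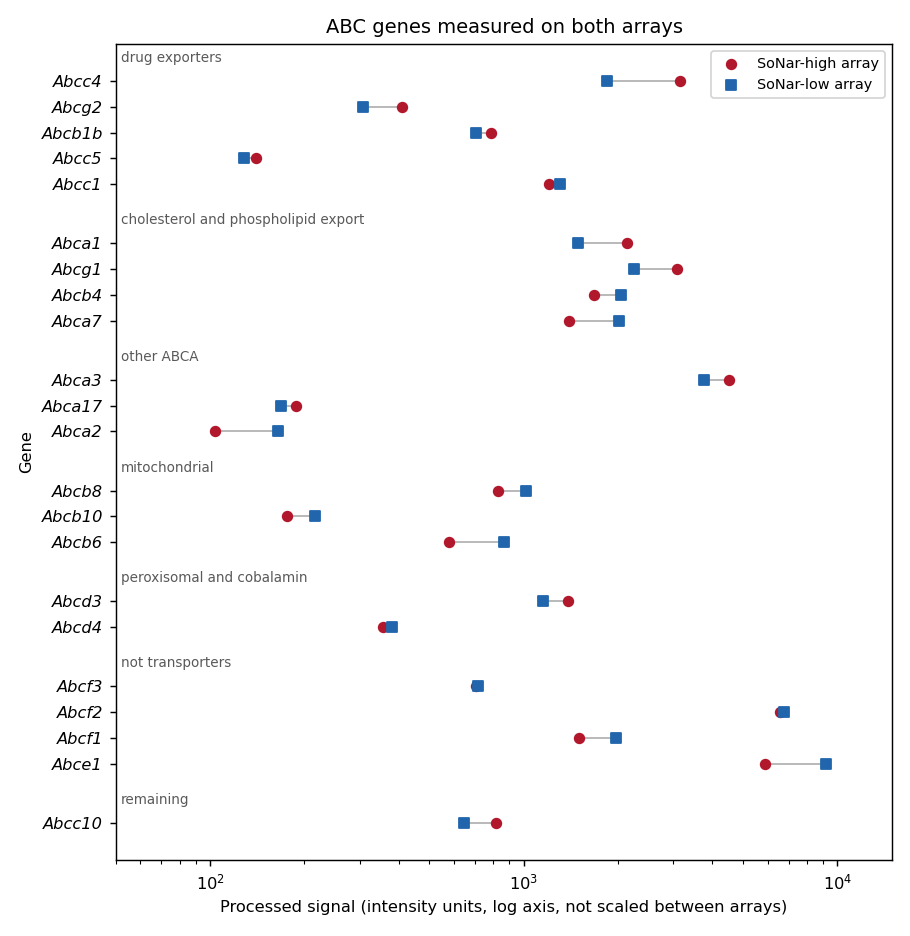
Processed signal (intensity units, log axis) of the measured ABC genes reported here, grouped by role, with 1 point per array (circle, SoNar-high; square, SoNar-low) and the mean over a gene's measured probes. Abcc4 lies at 3151 units (SoNar-high) and 1846 units (SoNar-low), while Abcf3 lies at 704.5 units (SoNar-high) and 717 units (SoNar-low).

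The 5 measured drug exporters all lay above 0, as did 66.9% of all measured genes, and Abcc1 lay below 0 under 5 of 11 alternative settings. Relative to the median gene 4 of the 5 lay above. Abcc4, which encodes an exporter of cyclic nucleotides and nucleotide-analogue drugs, had 3151 units on the SoNar-high array and 1846 units on the SoNar-low array. Its difference was 0.97 ± 0.20, a 1.96-fold difference and 0.75 relative to the median gene, just inside the 2-fold line. It had the highest difference of the 23 ABC genes and ranked 304 from the top among the 10521 measured genes. Another ABC gene lay further above the median gene than Abcc4 after quantile normalization, with the series matrix and against genes of like brightness, where Abcc4 lay at 0.49, 0.46 and 0.58 relative to that gene.

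Abcg2, the breast cancer resistance protein gene, which also marks side-population stem cells, had 408 units on the SoNar-high array and 307 units on the SoNar-low array (difference 0.62 ± 0.21). Relative to the median gene it lay at 0.39, and 81.7% of measured genes had a smaller difference. Abcb1b, the second P-glycoprotein gene of the mouse, had 785 units on the SoNar-high array and 707 units on the SoNar-low array (difference 0.35 ± 0.20), 0.13 relative to the median gene. Abcb1b lay within its error of the median gene and Abcg2 did not.

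Abcc5, an exporter of cyclic GMP and nucleotide analogues, was the member with the most probes. Its 3 measured probes gave differences of 0.24, 0.31 and 0.45, and the mean was 0.33 ± 0.12. The probe at 0.45 was printed as 10 spots, which ran from 226 to 297 units on the SoNar-high array (254 ± 24.2, SD of spots) and from 197 to 250.4 units on the SoNar-low array (213 ± 15.7, SD of spots). These ranges overlapped before scaling. After division by each array's 75th percentile they did not, with 0.553 as the lowest SoNar-high spot and 0.533 as the highest SoNar-low spot. This separation rests on the scaling chosen, as the overlap before scaling shows. Scaling over the probes that both arrays detected moved the mean over the 3 measured probes from 0.33 to 0.038. The probe with 10 spots was not followed alone under that scaling. Spots of 1 array show the spread of spots alone. Its remaining probe was detected by SoNar-low alone, with 35.5 units on the SoNar-high array and 66.3 units on the SoNar-low array, and with it the mean of all 4 probes was 0.076.

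Abcc1, the multidrug resistance protein gene whose product exports glutathione conjugates, had 1202 units on the SoNar-high array and 1304 units on the SoNar-low array. Its difference of 0.083 ± 0.20 was smaller than its error, and it lay 0.14 below the median gene (-0.14 relative to it).

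**Figure D2:**
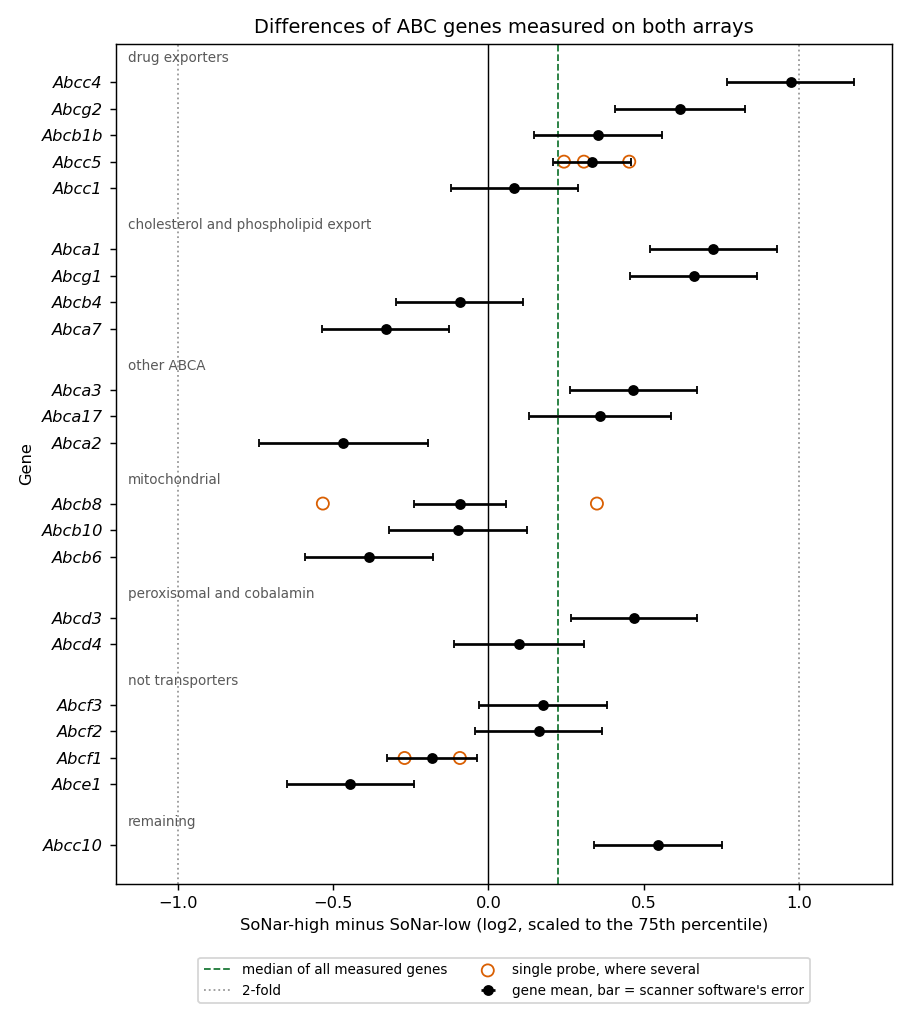
SoNar-high minus SoNar-low difference (log2, arrays scaled to the 75th percentile) of the measured ABC genes reported here. Black points are gene means with the scanner software's error as the bar, open circles are single probes of genes with several, the dashed line is the median of all measured genes at 0.22 and the dotted lines mark 2-fold; Abcc4 lies nearest to a dotted line, at 0.97.

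The 3 other drug exporters were not measured on both arrays. Abcb1a, the P-glycoprotein gene known for its role at the blood-brain barrier, had 62.2 units on the SoNar-high array, where it was not well above background, and 155.5 units on the SoNar-low array, where it was. The scaled SoNar-low signal was 2.17-fold the scaled signal of the dim probe (difference -1.12 ± 0.37), and this served as its bound. As the dim probe lay above the lowest signal well above background (40.8 units), this bound is a ratio of 2 signals and not a minimum. Of the 17 ABC genes detected by SoNar-low alone it was the 1 with a bound of at least 2-fold, against 7.92% of all 5453 such genes. That bound was 1.47-fold after scaling to the median, 1.66-fold after quantile normalization, 1.75-fold with the series matrix and 1.18-fold after normexp background correction, so the 2-fold call was lost under these settings.

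Abcb1a and Abcb1b are paralogs, and the probe sequences were not used here, so whether either probe also binds the other transcript was not tested. Of the T and NK cell markers, Cd4 (-1.66) and Cd3e lay at least 2-fold lower in SoNar-high cells and Thy1 (1.37) at least 2-fold higher, and the part of such cells in the Abcb1a value was not tested. The other 4 of the 7 T and NK markers were not measured on both arrays, and the summed signal of the list was 355 units on the SoNar-high array and 635 units on the SoNar-low array. Abcc3, which exports bile acids and glucuronides, had 41.7 units on the SoNar-high array and 47.5 units on the SoNar-low array, where alone it was well above background, and no fold was given. Abcc2, the canalicular conjugate exporter of the liver, was detected on neither array, with 10.2 units on the SoNar-high array and 3.98 units on the SoNar-low array.

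As a group, the 5 measured drug exporters had a median difference of 0.35 and the 18 other measured ABC genes one of 0.13. Relative to the median gene these medians lay at 0.13 and -0.09. With only the brighter 50% of probes, which kept 3 of the exporters, the exporter median lay at -0.033 relative to that gene. The exporters ranged from 0.083 to 0.97 and the other genes from -0.47 to 0.72, so the ranges overlapped from 0.083 to 0.72. Among the other genes 10 lay above 0 and 8 below. The median of the exporters exceeded that of the other genes by between 0.090, with only the brighter 50% of probes, and 0.57, against the median of genes of like brightness, over all the alternative settings. This is a description of these arrays, because 5 genes on 1 array per population give no test.

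**Figure D3:**
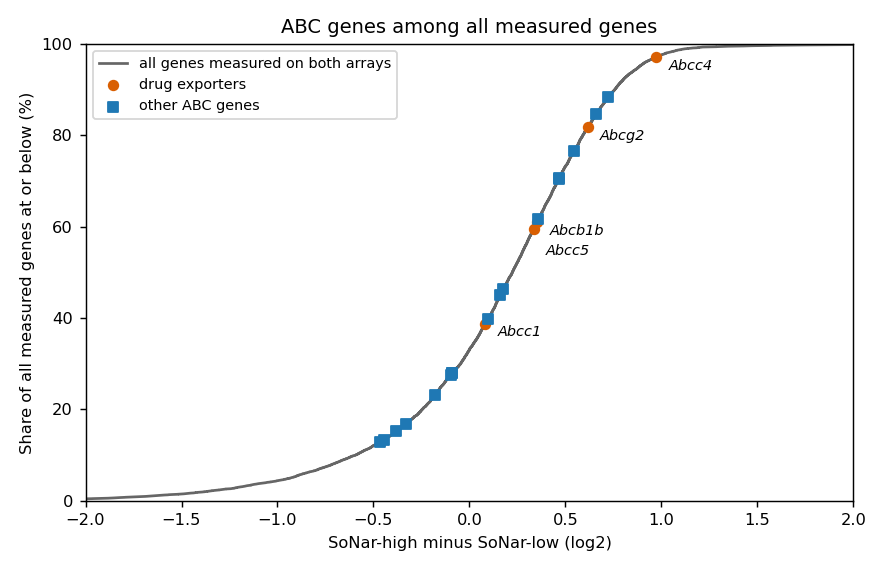
Share of all 10521 measured genes (y axis, %) with a SoNar-high minus SoNar-low difference (x axis, log2) at or below each value, with ABC genes placed on the curve as circles for the drug exporters and squares for the others. Abcc1 sits at 38.8% and Abcc4 at 97.1% of measured genes, and the squares spread along the curve between -0.47 and 0.72; the x axis ends at 2 on either side.

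The promoter sequences of 4 genes are shown because Abcc4 and Abca1 lay furthest above within their roles, and because the neighbouring genes Abcb1a and Abcb1b differed in whether they were seen on the SoNar-high array. Each runs 5′ to 3′ from 250 bases before to 50 bases after the RefSeq gene start on build GRCm38.p6. Capitals mark the letters CACGTG (the E-box bound by MYC family factors), TGACGTCA (the cAMP response element bound by CREB), GGGCGG (the GC box) and CCAAT (the CCAAT box), each read on both strands; no marked matches overlapped.
Abcc4, chr14:118706170-118706469, minus strand: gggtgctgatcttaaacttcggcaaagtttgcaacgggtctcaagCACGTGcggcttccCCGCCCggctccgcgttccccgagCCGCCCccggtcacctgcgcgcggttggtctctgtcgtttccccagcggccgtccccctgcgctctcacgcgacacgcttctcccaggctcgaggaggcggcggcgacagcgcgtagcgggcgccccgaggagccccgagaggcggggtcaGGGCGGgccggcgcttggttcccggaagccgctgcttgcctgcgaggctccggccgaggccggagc
Abcb1a, chr5:8566841-8567140, plus strand: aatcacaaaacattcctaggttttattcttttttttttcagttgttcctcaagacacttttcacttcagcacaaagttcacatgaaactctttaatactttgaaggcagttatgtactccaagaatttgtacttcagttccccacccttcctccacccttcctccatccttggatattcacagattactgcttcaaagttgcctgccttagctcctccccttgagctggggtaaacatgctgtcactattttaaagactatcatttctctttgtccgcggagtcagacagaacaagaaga
Abcb1b, chr5:8797897-8798196, plus strand: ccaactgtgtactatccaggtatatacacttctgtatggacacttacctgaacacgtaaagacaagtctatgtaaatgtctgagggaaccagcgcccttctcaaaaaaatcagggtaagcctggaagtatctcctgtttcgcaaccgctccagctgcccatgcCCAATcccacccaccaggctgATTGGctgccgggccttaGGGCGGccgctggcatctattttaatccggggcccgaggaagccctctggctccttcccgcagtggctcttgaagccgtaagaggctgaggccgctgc
Abca1, chr4:53159846-53160145, minus strand: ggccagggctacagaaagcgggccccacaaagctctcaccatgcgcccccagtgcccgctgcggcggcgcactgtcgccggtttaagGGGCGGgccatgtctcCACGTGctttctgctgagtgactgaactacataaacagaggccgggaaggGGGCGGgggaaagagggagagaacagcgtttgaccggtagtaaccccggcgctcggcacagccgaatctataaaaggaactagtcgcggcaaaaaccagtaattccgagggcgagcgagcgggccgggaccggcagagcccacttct
In these windows Abcc4 held 1 E-box, 205 bases before the start, and 3 GC boxes, and Abca1 held 1 E-box, 147 bases before the start, and 2 GC boxes. Abcb1b held 2 CCAAT boxes and 1 GC box, and Abcb1a held none of the 4 motifs. A second listed start of Abcc4 also held none. Of 38 ABC genes with a listed promoter 6 (15.8%) held the E-box, against 7.24% of 27025 genes, 17 (44.7%) held the GC box, against 35.9%, 14 (36.8%) the CCAAT box, against 37.9%, and 1 (2.63%) the cAMP response element, against 1.88%. Of the 18 measured ABC genes with a listed promoter 3 held the E-box, namely Abca1, Abcc4 and Abcf1. Abcf1 lay below the median gene (-0.40 relative to it), unlike the other 2. These matches describe letters in the windows and were not tested as binding sites.

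The lipid exporters split into a higher and a lower pair. Abca1, which loads cholesterol and phospholipid onto apolipoprotein A-I, had 2139 units on the SoNar-high array and 1490.0 units on the SoNar-low array (difference 0.72 ± 0.20). Abcg1, which exports cholesterol to high-density lipoprotein, had 3082 units on the SoNar-high array and 2242 units on the SoNar-low array (0.66 ± 0.20). Both lay above the median gene, by 0.50 and 0.44, and did so under the 8 alternative settings that can move such a value; the 3 others shift every gene alike.

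Abca7, a phospholipid exporter linked in humans to Alzheimer's disease, had 1393 units on the SoNar-high array and 2016 units on the SoNar-low array (difference -0.33 ± 0.20). Abcb4, the phosphatidylcholine floppase of bile, had 1672 units on the SoNar-high array and 2049 units on the SoNar-low array (-0.092 ± 0.20). Relative to the median gene they lay at -0.56 and -0.32 and stayed below it under the same 8 settings. Of the remaining lipid exporters, Abcg4 was seen on the SoNar-low array only. By 1 of its 2 probes it had a bound of 1.86-fold lower in SoNar-high cells under the reported scaling. Abcg5 and Abcg8, whose products form the sterol exporter of liver and gut, were on neither array above background.

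Regulators of these genes were read beside them. Of 12 regulators of drug and sterol exporters 8 were measured, with a median of 0.18, from the retinoid X receptor gene Rxrb (0.70) to the xenobiotic receptor gene Nr1i3 (-0.62), and 0 past 2-fold. The liver X receptor gene Nr1h2 was at 0.29, while Nr1h3, its relative and a known activator of Abca1 and Abcg1, was seen on the SoNar-low array only, with 11.2 units on the SoNar-high array and 35.6 units on the SoNar-low array. Rxra was also seen on the SoNar-low array only. Its 2 probes had means of 27.8 units on the SoNar-high array and 89.2 units on the SoNar-low array. The largest bound by a single Rxra probe was 3.02-fold lower in SoNar-high cells. Nfe2l2, which encodes the oxidative stress factor NRF2, was at 0.65. Of the 3 lipid acceptor genes Apoe was measured, at 0.14, and Apoa1 and Lcat were on neither array above background. Macrophages are rich in Abca1 and Abcg1. Of 5 monocyte and macrophage markers with a probe 3 of the 4 measured ones lay below 0, led by Csf1r (-1.19), with summed signals of 361 units on the SoNar-high array and 581 units on the SoNar-low array. Mrc1 was the exception at 0.62, and the part of macrophages in the Abca1 and Abcg1 values was not tested.

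Among the other subfamily A genes, 3 of 13 were measured. Abca3, which loads surfactant lipid into lamellar bodies in the lung, had 4532 units on the SoNar-high array and 3773.5 units on the SoNar-low array (difference 0.47 ± 0.20), above the median gene except after quantile normalization (-0.011 relative to it). Lung epithelial markers ran the other way, with Scgb1a1 at -3.31, Sftpd at -1.87 and Sftpa1, Sftpb and Sftpc seen on the SoNar-low array only. Their summed signal was 126.5 units on the SoNar-high array and 1553 units on the SoNar-low array. The part of lung RNA in the Abca3 value was not tested. Abca17, next to Abca3 in the genome, had 188 units on the SoNar-high array and 169 units on the SoNar-low array (0.36 ± 0.23).

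Abca2, a lysosomal transporter abundant in oligodendrocytes, had 104 units on the SoNar-high array and 165 units on the SoNar-low array (difference -0.47 ± 0.27). It was the lowest of the 23 ABC genes under the reported setting, and the part of brain-expressed RNA in its value was not tested. Relative to the median gene, Abce1 lay lower after quantile normalization (-0.90 against -0.35 for Abca2) and with the series matrix (-0.80 against -0.38). The same held after normexp (-0.79 against -0.33) and against genes of like brightness (-0.83 against -0.34). Of 7 brain markers 5 were measured, among them Rtn1 (2.93), Cck (2.19) and Mbp (0.86) above 0 and Snap25 (-1.03) below; Syt1 was detected by SoNar-high alone and Gfap by SoNar-low alone. Their summed signal was 1352 units on the SoNar-high array and 1577 units on the SoNar-low array.

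The mitochondrial members Abcb6, Abcb8 and Abcb10 lay below 0, while after scaling to the array median they lay above it. Abcb8, part of a mitochondrial potassium channel complex, had probes on opposite sides of 0, at -0.53 and 0.35, and a mean of -0.092 ± 0.15, and by its brightest probe it lay 0.080 above the median gene. Abcb10, which is needed for haem synthesis in red cell precursors, had 176 units on the SoNar-high array and 217 units on the SoNar-low array (-0.097 ± 0.22). Abcb6, a porphyrin transporter, had 577 units on the SoNar-high array and 866 units on the SoNar-low array (-0.38 ± 0.21).

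All 7 iron-sulfur and haem partner genes were measured, with a median of 0.33 and 0 past 2-fold. Glrx5, a glutaredoxin of iron-sulfur assembly, was highest at 0.53. Of 5 erythroid markers 2 were measured, Hba-a1 at -1.82 and Hbb-bt at -0.42, with a summed signal of 509.5 units on the SoNar-high array and 1102 units on the SoNar-low array. Abcb6 lay on the same side as these markers, while Abcb10 (-0.097 ± 0.22) was within its error of 0. Abcb10 lay above 0 after quantile normalization (0.11) and with the series matrix (0.13). The part of red cell precursors in the Abcb6 and Abcb10 values was not tested.

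Of subfamily D 2 of 4 genes were measured. Abcd3, which brings branched and long-chain acyl groups into peroxisomes, had 1386 units on the SoNar-high array and 1152 units on the SoNar-low array (difference 0.47 ± 0.20). Abcd4, a lysosomal protein of vitamin B12 release, had 355 units on the SoNar-high array and 381 units on the SoNar-low array (0.098 ± 0.21). Abcd2, a peroxisomal importer of fatty acyl groups, was on neither array above background. The 4 peroxisome partners had a median of 0.051, and the membrane assembly gene Pex16 was lowest at -0.33.

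The 4 members that are not transporters all lay below the median gene, except that Abcf2 and Abcf3 lay above it with no filter on dim probes (0.11 and 0.13). Abce1, which splits ribosomes after termination, had 5879 units on the SoNar-high array and 9205 units on the SoNar-low array (difference -0.45 ± 0.20), and it lay -0.67 relative to the median gene. It stayed below that gene under the 8 settings that can move such a value (-0.90 to -0.49). Abcf1, which acts in translation initiation, was at -0.18 ± 0.14 with probes at -0.27 and -0.092. Abcf2 had 6562 units on the SoNar-high array and 6747 units on the SoNar-low array (0.16 ± 0.20), and Abcf3 had 704.5 units on the SoNar-high array and 717 units on the SoNar-low array (0.18 ± 0.20). Abcf2 and Abcf3 were within their error of 0 and of the median gene.

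Of 4 partner genes of these proteins 3 lay above 0, against 66.9% of all measured genes. Pelo, which works with Abce1 in rescuing stalled ribosomes, was at 0.92, Hbs1l at 0.34, the kinase gene Eif2ak4 at 0.73 and its activator gene Gcn1 at -0.26, with 0 of the 4 past 2-fold. Gcn1 (-0.78 and 0.26) and Hbs1l (-0.20 to 0.71) had probes on opposite sides of 0.

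Of the remaining members 1 of 7 was measured. Abcc10, whose product transports taxanes, had 817 units on the SoNar-high array and 644 units on the SoNar-low array (difference 0.55 ± 0.20). Abcc8 and Abcc9, which encode the sulfonylurea receptors of ATP-sensitive potassium channels, were detected by SoNar-low alone. Abcc8 had a bound of 1.23-fold lower in SoNar-high cells by 1 of its 2 probes, while no fold could be given for Abcc9. The difference of that Abcc8 probe (-0.353 ± 0.435) was within its error of 0. The channel pore genes were little seen too, Kcnj11 on the SoNar-low array only and Kcnj8 on neither. Abcc6, a liver transporter whose loss leads to ectopic mineralisation, had a bound of 1.07-fold lower in SoNar-high cells by 1 of its 2 probes. That Abcc6 probe had 12.0 units on the SoNar-high array, and its difference was -1.87 ± 1.45. Abcg3 had 49.7 units on the SoNar-high array and 60.7 units on the SoNar-low array. Its value of 1.06-fold lower is a ratio of these scaled signals and not a minimum, and the difference (-0.085 ± 0.46) was within its error of 0.

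Across the 17 genes detected by SoNar-low alone, probes lay between 9.35 and 62.2 units on the SoNar-high array and between 4.32 and 155.5 units on the SoNar-low array. For 11 of them, among them Abca4, Abca5, Abca12 to Abca15, Abca8a, Abcb9, Abcc9 and Abcc12, the scaled SoNar-low signal did not exceed the larger of the SoNar-high detection floor and the probe's own SoNar-high signal, so no fold was given. Across the 9 genes on neither array, probes lay between 9.71 and 21.5 units on the SoNar-high array and between 3.98 and 20.1 units on the SoNar-low array, in Abca6, Abca8b, Abca9, Abcb5 and Abcb11 beside those named above.

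**Figure D4:**
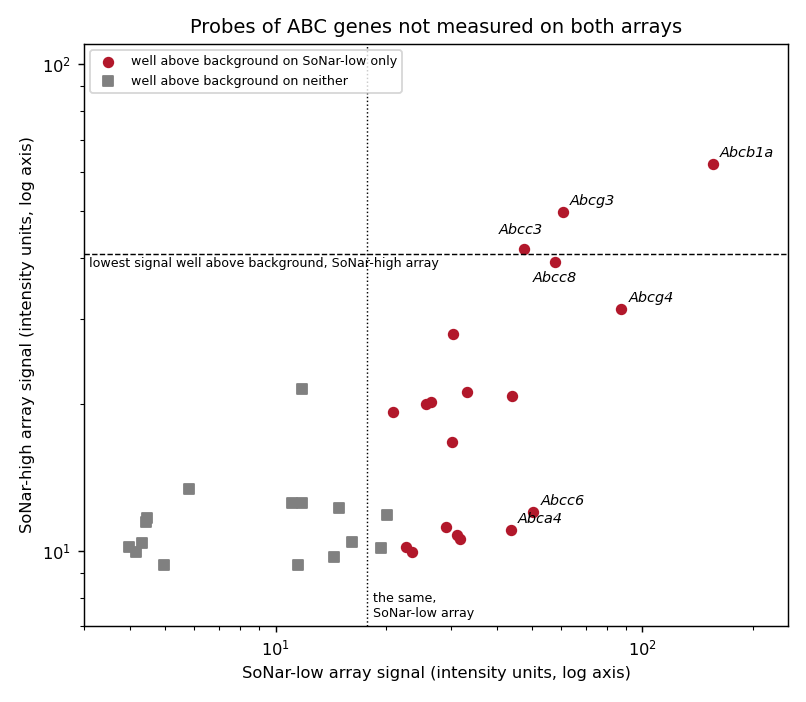
Signal on the SoNar-high array (y axis) against the SoNar-low array (x axis), in intensity units on log axes, of probes of ABC genes not measured on both arrays; lines mark the lowest probe signal well above background, 40.8 units (SoNar-high, dashed) and 17.7 units (SoNar-low, dotted). Circles are probes detected by SoNar-low alone and squares probes detected on neither array, and Abcb1a stands at the upper right.

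Family members with other symbols were read separately. Tap2, which encodes a subunit of the antigen peptide transporter, had 4535 units on the SoNar-high array and 2800 units on the SoNar-low array, a difference of 0.90. Tap1, the gene of its partner subunit, had 344 units on the SoNar-high array and 436 units on the SoNar-low array, a difference of -0.14. The chloride channel gene Cftr was seen on the SoNar-low array only, with a bound of 2.22-fold lower in SoNar-high cells under the reported scaling.

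The order of the drug exporters shifted with the processing. Among them, Abcc4 stayed furthest above the median gene under 7 of the 8 alternative settings that do not shift every gene alike, at 0.49 to 0.93, while with the series matrix Abcc5 (0.48) passed Abcc4 (0.46). Abcg2 lay above the median gene under the 7 of these that kept its probe, at 0.31 to 0.57. Abcb1b lay between -0.033 and 0.31 and Abcc1 between -0.34 and 0.036, each on both sides of the median gene.

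**Figure D5:**
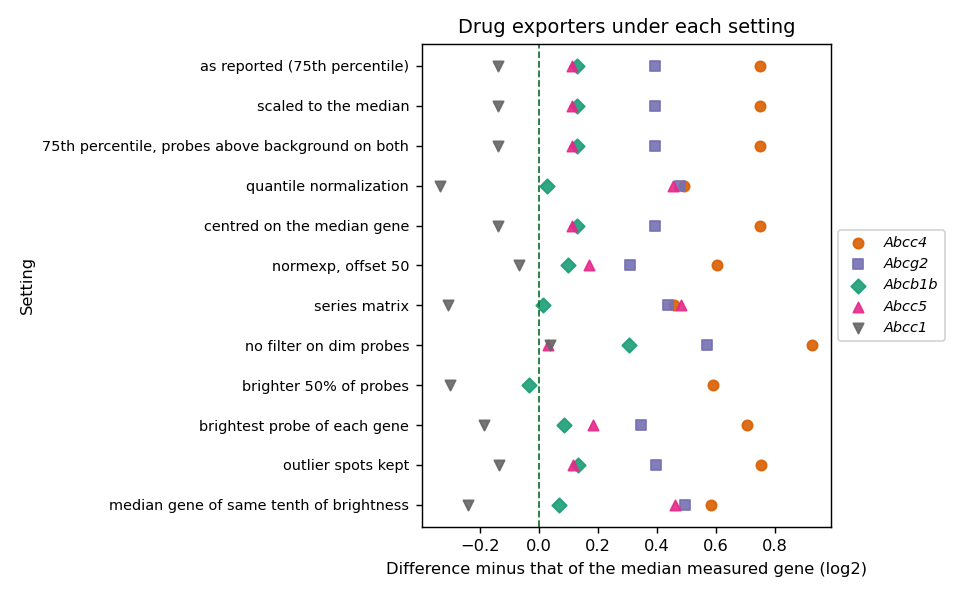
Difference of the 5 measured drug exporters minus that of the median measured gene (x axis, log2) under the reported setting and 11 alternatives (rows), 3 of which shift every gene alike and so repeat the reported values. Abcc4 lies between 0.46 and 0.93, whereas Abcb1b and Abcc1 lie near or across the dashed line at 0.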

How the data were processed

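The samples were 2 sorted populations with 1 array each. Per the file headers, the authors' scanner files hold intensity values of a one-colour Agilent array extracted with Feature Extraction 11.0.1.1 (9.1 per the submitters' processing notes), background-subtracted and not scaled between arrays. Log2 values in the authors' series matrix, as deposited, have the same median of 5.90 on both arrays and Spearman's rho of 1.000 and 0.9998 with the scanner signals across probes; their scaling and centring are not stated, and they served as an alternative.

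Control and outlier spots were left out, spots of a probe averaged on the log2 scale, and each array's 75th percentile subtracted. RefSeq accessions gave current symbols through a GRCm38.p6 gene table, used for names and neighbours; 27115 of 39085 probes matched 20618 genes. Abca16 had no named probe. No position of a probe is given, since the array design names build mm9. A gene was called at 2-fold, by size alone and without a p-value. Genes dim on 1 array got a bound, the bright signal over the higher of the dim probe's own signal and that array's detection floor. Where the probe's own signal was the higher, this is a ratio of 2 signals and not a minimum. The floor is the lowest detected signal, and some undetected probes lay above it, so no bound is a strict minimum. Bounds hold for the reported scaling, and only that of Abcb1a was followed by name under the alternatives. With several probes the largest bound by a single probe was taken.

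The members, partner lists and markers were chosen with earlier results of these data known. Every member was to be named or counted, and of partner lists the highest and lowest member; values of some genes are not reported here, though counts and medians include them. Nfe2l2, Nr1h2, Nr1h3, Rxra, Hbs1l, Eif2ak4, Kcnj8, Kcnj11 and the single markers were chosen after their values were seen. Alternatives changed the scaling, background correction (normexp, offset 50, on median spot signals), dim filter, probe choice, outlier spots and threshold. The gene step was tested on simulated data. Analyses used Python 3.11.15, numpy 2.4.6, pandas 2.3.3, R 4.3.3 and limma 3.58.1.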

Additional observations from a re-analysis of the deposited data

How the results depend on the processing

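No paired analysis was possible because each population had 1 array. Over the alternatives, a change smaller than the median SD of a difference between spots (0.15) was taken as no change for a median, and 1.5 times for a count. Scaling to the array median put 8 ABC genes at least 2-fold higher (among them Abca1, Abca3, Abcc4, Abcc10, Abcd3, Abcg1 and Abcg2), where 32.1% of all measured genes were, with 0 genes bounded at 2-fold; the medians were 0.92 for the drug exporters, 0.70 for the other ABC genes and 0.74 for all 23. Scaling over the probes that both arrays detected gave medians of 0.057, -0.17 and -0.12 in that order, and centring on the median gene 0.13, -0.094 and -0.048, each with 2 genes bounded at 2-fold lower. These shifts follow from the scaling itself, which moves every gene by one amount. The drug exporter median was 0.65 after quantile normalization and 0.65 with the series matrix (0.45 and 0.44 relative to the median gene). Under these or under normexp 0 genes were bounded at 2-fold. Without the filter on dim probes 4 of 49 genes passed 2-fold upwards, against 9.14% of all genes, and 2 downwards, against 12.3%, and the other ABC genes had a median of -0.085; all 6 genes were dim on at least 1 array. The median of the measured ABC genes was 0.35 with the brighter 50% of probes and 0.35 with the brightest probe of each gene. The median of all genes moved as well, to 0.385 and 0.27, so the ABC median lay at -0.036 and 0.079 relative to it. A threshold of 1.5-fold gave 5 genes higher, where 20.4% of all measured genes were, and 3 bounded lower, and one of 3-fold gave 0 bounded. Against the median of genes of like brightness (10 groups of equal size), an alternative chosen after seeing the data like those for the bounds, all 23 had a median of -0.022 and the other ABC genes one of -0.11; the median of all genes ran from -0.13 to 0.40 between these groups. Keeping outlier spots changed none of the counts of ABC genes. With 1 array per population, scan and population cannot be told apart, and signals under 40.8 units on the SoNar-high array set only bounds.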

Other observations

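Several ABC genes lie in runs on a chromosome. The 5 genes Abca8b, Abca8a, Abca9, Abca6 and Abca5, which follow each other on chromosome 11, had 0 members measured on both arrays, as had Abca14 and Abca15 on chromosome 7 and the pair Abcg5 and Abcg8 on chromosome 17. Abca17 and Abca3 on chromosome 17 were both measured and both lay above 0 (0.36 and 0.47). The run of Abcb1a, Abcb1b and Abcb4 on chromosome 5 was mixed: Abcb1b (0.35) and Abcb4 (-0.092) were measured, and Abcb1a was seen on the SoNar-low array only. Abcd3 and Abca4, neighbours on chromosome 3, were also mixed, with Abcd3 measured and Abca4 seen on the SoNar-low array only. These runs were looked at after the values were known.

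Where an ABC gene had several probes they did not always go together. Of 4 genes with more than 1 measured probe, Abcc5 and Abcf1 had all of them on the same side of 0 and Abcb8 did not. The 2 probes of Abca2 gave -0.47 and, by the probe dim on the SoNar-high array, -0.45. The other 19 measured ABC genes rested on 1 probe each.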
